A study of Rattus norvegicus with 24 samples.

Results

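GABA-A receptor subunits were followed in the supraoptic nucleus of rats deprived of water; the large neurons of this part of the hypothalamus secrete vasopressin and oxytocin. The genes were Gabra2, Gabra3, Gabra4 and Gabra5 (alpha subunits), Gabrb1 and Gabrb2 (beta subunits) and Gabrg1 (a gamma subunit). All probe sets with a single symbol among these 7 genes in the array's annotation were taken, which gave 8 probe sets of 31099 on the array, for 7 of its 14218 genes with such a probe set. Gabrb2 had a pair of probe sets and each other gene had 1.

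The samples were Affymetrix arrays, each hybridised with RNA pooled from 5 Sprague Dawley rats. In the male set, 5 arrays of control rats were set against 5 arrays of rats dehydrated for 3 days, all 10 to 12 weeks old. In the female set, 4 arrays of euhydrated control rats were set against 4 arrays of rats dehydrated for 72 hours; the labels give no age for them. The sets differ in sex, RNA extraction, labelling and software (GCOS for males, MAS5 for females), so levels were compared only within a set. Another array labelled dehydrated female was left out, and its values are given separately. The design text treats the pools of a group as both biological and technical replicates, so p-values measure only the spread between these pools. The arrays of lactating rats were not analysed here.

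GABA-A receptors are chloride channels made of 5 subunits around a central pore, usually alpha and beta subunits with a gamma or delta subunit. GABA binds between alpha and beta subunits, and the alpha and gamma types set how a receptor responds to benzodiazepines, where in the cell it sits and how fast it closes. Magnocellular neurons receive a dense GABA input, and whether GABA inhibits or excites them depends on their chloride gradient.

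No GABA-A subunit probe set passed limma's test for a change with dehydration in either set. Of the 8 probe sets, 5 passed the filter on low values, namely those of Gabra2, Gabra5, Gabrb1 and Gabrg1 and the brighter of the Gabrb2 pair. In females 0 of these 5 passed an adjusted p of 0.05, against 2.96% of the 21729 probe sets tested. In males 0 of 5 passed, against 17.7% of all. At an unadjusted p under 0.05 the count was also 0 of 5 in each set, where 19% of all probe sets in females and 31.4% in males lay under it. With only 5 probe sets tested, a count of 0 says little in either set. The median log2 fold change of the 5 was -0.01 in females and 0 in males, beside -0.028 and -0.042 over all probe sets tested. In such bulk samples fewer cells of a type and less RNA per cell cannot be told apart.

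The intervals show how large a change could have been missed. In females the 95% confidence intervals of the 5 fold changes together ran from 0.705-fold to 1.75-fold, and in males from 0.688-fold to 1.3-fold. All 5 intervals lay within 2-fold either way in each set. Within 1.5-fold either way lay 4 of the 5 in females and all 5 in males. To pass the threshold at its own standard error, a member would have needed a log2 change between 0.52 (Gabrb2) and 0.96 (Gabrg1) in females, and between 0.25 (Gabrb1) and 0.50 (Gabrg1) in males.

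**Figure D1:**
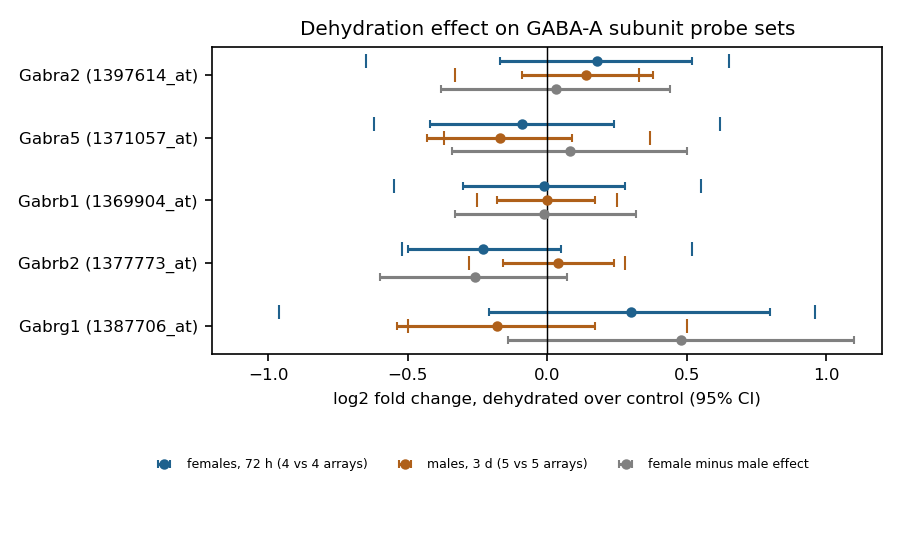
Log2 fold change of dehydrated over control arrays (points) with 95% confidence intervals (bars) for the 5 GABA-A subunit probe sets tested, in females (blue, 4 against 4 arrays) and males (brown, 5 against 5), with the female minus male effect in grey. Short vertical ticks mark the change each probe set would have needed to pass limma's threshold in its set; every interval spans 0.

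In the rat annotation 4 of the 7 genes lie close together: Gabrb1 is next to Gabra4, and Gabra2 is next to Gabrg1, with the single protein-coding gene Cox7b2 between the pairs. Of these neighbours, Gabrb1, Gabra2 and Gabrg1 were in the main test, and none passed. For 6 of the 7 genes the RefSeq promoter table (build GRCr8) holds the 300 bases from 250 before to 50 after the start. Their GC content ran from 39.3% for Gabra3 to 76.3% for Gabra5, beside a median of 51.7% over 33469 promoters. The CpG count in the window was 42 for Gabra5, 35 for Gabra4 and 0 for Gabra3, beside a median of 7.

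Short motifs were searched on both strands of these windows. None of the 6 held TGACGTCA (the cyclic AMP response element) or TGANTCA (the AP-1 element), which 1.83% and 7.33% of all promoters held. The GC box GGGCGG was in the windows of Gabra4 and Gabra5 and in 33.1% of all, and TATAAA in that of Gabra3 and in 14.2% of all. The longest stretch that the windows of the beta subunit genes Gabrb1 and Gabrb2 shared was TGCGCATGCGC, of 11 bases, which contains a well-known NRF-1 binding motif; 0.598% of all promoters held it. It was picked out after the sequences were compared. The 150 bases before the start of each gene are shown because they hold this stretch, in capitals.
Gabrb1 (chr14:36902894-36903043, minus strand): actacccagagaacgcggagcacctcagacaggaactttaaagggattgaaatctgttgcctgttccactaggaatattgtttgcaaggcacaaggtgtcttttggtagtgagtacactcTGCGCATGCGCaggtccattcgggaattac
Gabrb2 (chr10:27439643-27439792, plus strand): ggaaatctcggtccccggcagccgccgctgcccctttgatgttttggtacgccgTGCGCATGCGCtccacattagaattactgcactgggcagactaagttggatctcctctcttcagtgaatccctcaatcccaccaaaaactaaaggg
The stretch ended 19 bases before the start in Gabrb1 and 85 bases before it in Gabrb2. The arrays say nothing on whether a factor binds there, and both genes were among those that did not pass the test.

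Among the alpha subunits, Gabra2 encodes a subunit common in forebrain synapses and on axon initial segments. Its signal (1397614_at) was 91.3, 123, 103 and 157 on the female control arrays and 148, 121, 141 and 121 on the dehydrated ones. In females the log2 fold change was 0.18 ± 0.16 (SE, n = 4 against 4; 95% interval -0.17 to 0.52; limma adjusted p = 0.591). All 4 dehydrated arrays thus lay inside the range of the controls. On the male arrays it read 135, 161, 199, 162 and 210 in controls and 196, 194, 159.9, 196 and 207 after dehydration. The male log2 fold change was 0.14 ± 0.11 (SE, n = 5 against 5; interval -0.09 to 0.38; limma adjusted p = 0.4), again with overlapping groups.

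Gabra5 encodes an alpha subunit found largely outside synapses, where it carries tonic inhibition. Its signal (1371057_at) was 110.5, 188, 147 and 141 on the female control arrays and 148, 122, 143 and 129.5 on the dehydrated ones. The female log2 fold change was -0.09 ± 0.15 (interval -0.42 to 0.24; limma adjusted p = 0.798). The dehydrated arrays again fell within the control range. Male control arrays read 190.1, 122, 131, 126 and 152, and dehydrated ones 117, 139, 103, 124 and 149. Of the 5 male controls 1 stood above the rest, and the groups overlapped. The male log2 fold change was -0.17 ± 0.12 (interval -0.43 to 0.09; limma adjusted p = 0.374).

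Gabrb1 and Gabrb2 encode beta subunits, which line the channel and form a face of the GABA binding site. Gabrb1 signal (1369904_at) was 439, 419, 473 and 504 on the female control arrays and 479.6, 499, 516 and 345 on the dehydrated ones. Of the dehydrated arrays 1 lay below all controls and 1 above them. The group means of Gabrb1 were 459 ± 37.5 and 459.7 ± 78.2 (SD, n = 4 each), and the log2 fold change was -0.01 ± 0.13 (interval -0.30 to 0.28; limma adjusted p = 0.977). In males it read 698, 561, 606, 522 and 541 in controls and 625, 568, 525, 541 and 651 after dehydration. All 5 dehydrated male arrays lay within the control range, and Gabrb1 had the narrowest interval of the 5 probe sets in males, with a log2 fold change of 0.00 ± 0.08 (-0.18 to 0.17; limma adjusted p = 0.978).

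Gabrb2 signal (1377773_at) was 588, 798, 611 and 611 on the female control arrays and 574, 497, 638 and 511 on the dehydrated ones. Of the 4 dehydrated arrays 3 lay below every control and 1 among them. The log2 fold change was -0.23 ± 0.13 (interval -0.50 to 0.05; limma adjusted p = 0.363), the smallest adjusted p of the members in females. Male control arrays read 534, 683, 699.9, 694 and 684, and dehydrated ones 634, 747, 556, 768 and 684. Here 2 dehydrated arrays lay above every control, and the log2 fold change was 0.04 ± 0.09 (interval -0.16 to 0.24; limma adjusted p = 0.819).

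Gabrg1 encodes a gamma subunit that is known from the hypothalamus and amygdala and also from glia. Its signal (1387706_at) was 89.2, 39.8, 41.3 and 57.5 on the female control arrays and 69.6, 80.3, 76.4 and 49.9 on the dehydrated ones. In females it had the widest interval of the members, with a log2 fold change of 0.30 ± 0.23 (-0.21 to 0.80; limma adjusted p = 0.525). The 4 dehydrated arrays lay inside the control range. Males read 65.8, 54.1, 46.1, 44.2 and 51.5 in controls and 44.2, 71.4, 42, 31 and 43.6 after dehydration, a log2 fold change of -0.18 ± 0.17 (-0.54 to 0.17; limma adjusted p = 0.495). Of the male dehydrated arrays 1 was above all controls and 3 were below them.

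**Figure D2:**
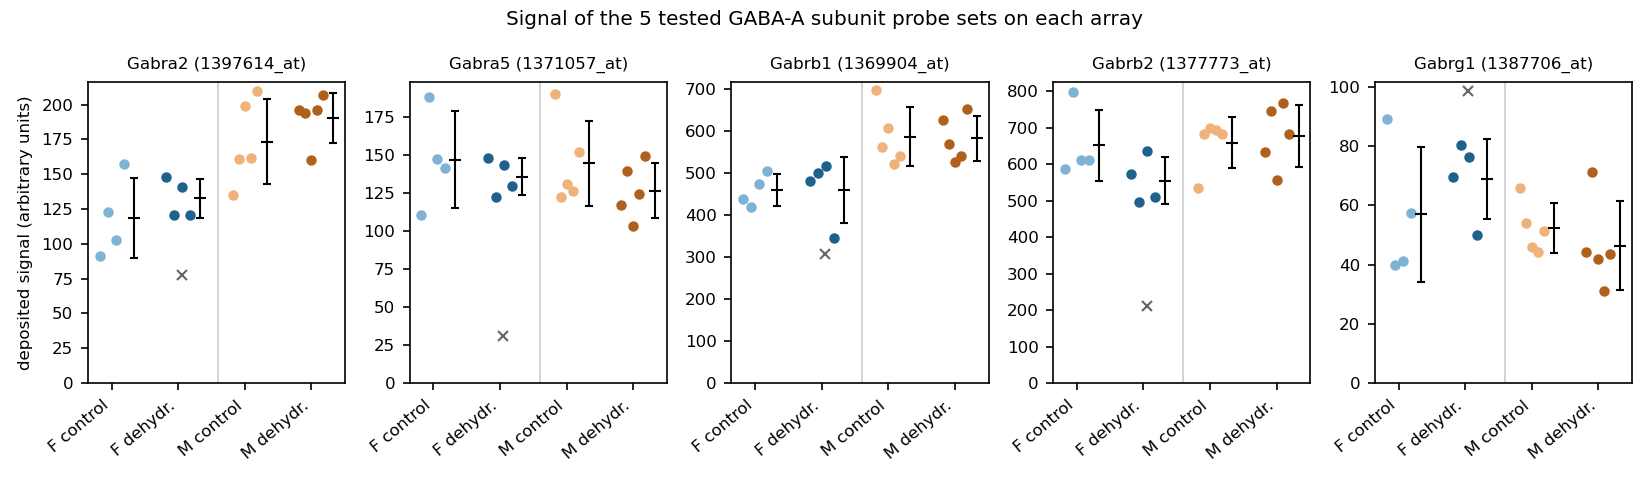
Deposited signal on each array (filled points) of the 5 GABA-A subunit probe sets tested, in control and dehydrated females (F) and males (M), with the mean and SD of each group (black). Control and dehydrated points overlap in every panel and set, and the grey cross is the dehydrated female array that was left out, which lay below the other 8 female arrays for Gabra2, Gabra5, Gabrb1 and Gabrb2 and above them for Gabrg1.

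The female and male effects were also compared directly, in 1 fit over the 18 arrays with each set against its own controls. Of the 5 probe sets 0 passed limma's threshold for a difference, and 0 lay at an unadjusted p under 0.05, beside 0.0322% and 10% of all probe sets tested. The farthest apart were the Gabrg1 effects, at 0.30 in females and -0.18 in males, a difference of 0.48 ± 0.30 on the log2 scale (interval -0.14 to 1.10; limma adjusted p = 0.637). For Gabrb2 the female effect was lower by 0.26 ± 0.16 (difference -0.26, interval -0.60 to 0.07; limma adjusted p = 0.626). The other 3 differences lay between -0.01 and 0.08.

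The remaining 3 probe sets were under the filter in each set and were left out of the main test. In a fit with no filter none of them passed limma's threshold in either set. Their smallest adjusted p there was 0.397 in females (Gabra3, log2 fold change 0.52 ± 0.28) and 0.42 in males (Gabra4, -0.38 ± 0.26). Gabra3 (1369844_at) read 2.01 to 3.77 on the female control arrays, 2.4 to 18 on the dehydrated female arrays and 1 to 2.1 over all male arrays. Gabra4 (1369905_at), whose subunit is known from extrasynaptic receptors with delta, read 2.77 to 20.8 over the female arrays and 0.6 to 10.9 over the male arrays. Their groups overlapped in each set. The second probe set of Gabrb2 (1369818_at) read 3.36 to 22.8 over the female arrays and 0.8 to 17 over the male arrays. The brighter Gabrb2 probe set read 497 to 798 and 534 to 768 on the same arrays. Probe sets of a single gene can thus differ widely in signal, and a low signal on Gabra3 or Gabra4 does not show that their transcripts were absent; why the Gabrb2 probe sets differ was not tested.

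**Figure D3:**
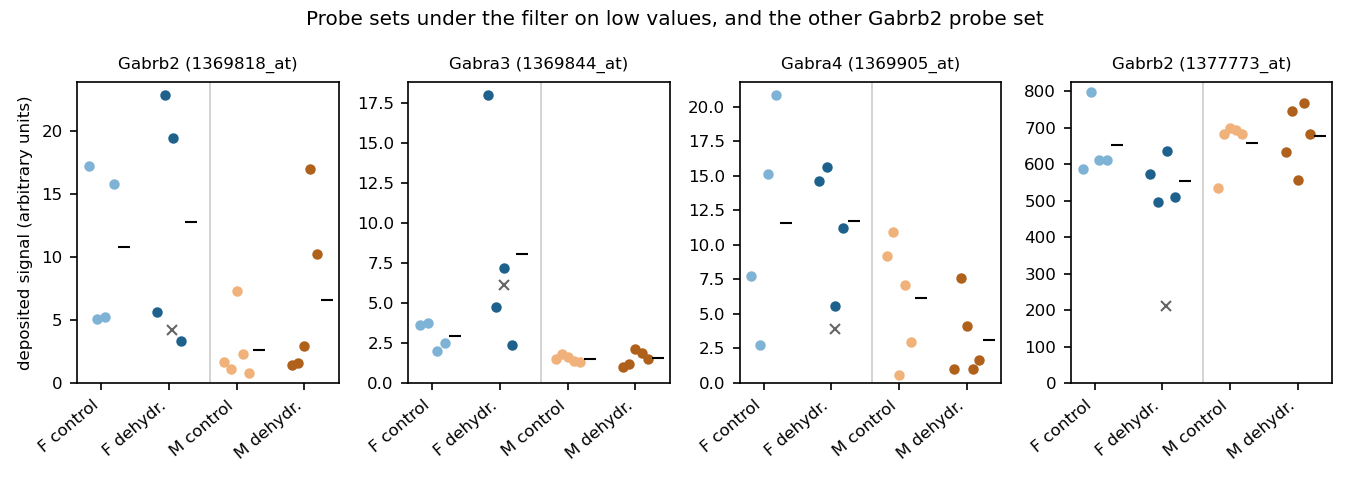
Deposited signal on each array of the 3 GABA-A subunit probe sets under the filter on low values and, at the right, of the brighter Gabrb2 probe set. Group means are black ticks and the left-out female array is a grey cross. Each panel has its own linear scale. The panels of the 3 probe sets at the left reach at most 22.8, and the brighter Gabrb2 probe set lies between 497 and 798 apart from the left-out array.

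Other genes of GABA signalling were described with 7 lists of 90 genes, of which 63 were measured in each set, with the brightest probe set of a gene standing for it. In females 1 of 63 passed limma's threshold (1.59%, against 2.96% of all probe sets) and in males 11 of 63 (17.5%, against 17.7% of all). In males 4 rose and 7 fell, where 8.32% and 9.38% of all probe sets rose and fell. Both shares lie near or below the background, which counts all probe sets tested and not the brightest of each gene. With the filter at the 50th percentile, 12 of 51 list genes were called in males, beside 3846 of 15521 probe sets. In females 1 of 52 was called there, beside 729 of 15521. At an unadjusted p under 0.05 there were 17 of 63 in females (27%, above the 19% of all probe sets) and 20 of 63 in males (31.7%, near the 31.4% of all). Most of the 17 in females were lower. The median log2 fold change of the 63 genes was -0.09 in females and -0.01 in males.

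Of the other GABA-A subunits, 5 in females and 4 in males were measured, and 0 passed limma's threshold in either set; at an unadjusted p under 0.05 there were 2 in females, both lower, and 0 in males, beside 19% and 31.4% of all probe sets; the 2 are 40% of the female list. The delta subunit gene Gabrd, of extrasynaptic receptors, had 49.2 ± 8.36 in control and 32.4 ± 9.17 in dehydrated females on 1395269_s_at (SD, n = 4 each; log2 fold change -0.54 ± 0.21, limma adjusted p = 0.192). A different Gabrd probe set, 1369048_at, had a log2 fold change of -0.22 ± 0.19 in females and 0.12 ± 0.16 in males. Gabre, the epsilon subunit gene, had log2 fold changes of 0.24 ± 0.17 in females and 0.17 ± 0.12 in males, neither past the threshold. The glycine receptor, a related chloride channel, had 0 of 2 measured genes past it in females and 0 of 3 in males. Its beta subunit gene Glrb had -0.18 ± 0.11 and 0.14 ± 0.08, and Glra1 had 0.44 ± 0.20 in males at low signals (means of 15 and 22.1). At an unadjusted p under 0.05 there were 0 in females and 1 in males.

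Among genes of GABA-A receptor clustering, trafficking and assembly, 2 of 24 rose and 2 fell in males (16.7% called, beside 17.7% of all probe sets). In females 0 of 25 passed limma's threshold, and 7 (28%) lay under an unadjusted p of 0.05, beside 19% of all probe sets. Of these 7, 2 were higher and 5 lower. Maged1, a MAGE family adaptor, rose in males by 0.40 ± 0.05 on the log2 scale, with means of 1451 ± 92.9 and 1911 ± 58.3 (SD, n = 5 each; limma adjusted p = 9.16e-05). Iqsec3, a guanine nucleotide exchange factor of inhibitory synapses that binds gephyrin, rose by 0.35 ± 0.08 in males (limma adjusted p = 0.0103). Their female values were 0.27 ± 0.10 and 0.11 ± 0.15, and neither difference between the sets passed (limma adjusted p = 0.756 and 0.712).

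Rdx encodes radixin, which anchors receptors with the alpha 5 subunit to actin. It fell in males by 0.33 ± 0.09 on 1388619_at (limma adjusted p = 0.0189), and 3 of its 5 probe sets fell there. In females 0 of the 5 passed limma's threshold, and their log2 fold changes ran from -0.46 to 0.29. Dag1, dystroglycan of inhibitory synapses and of glial endfeet, fell in males by 0.31 ± 0.08 (limma adjusted p = 0.0128) and had -0.25 ± 0.10 in females. Mkln1, muskelin, which binds alpha 1 subunits, had 0.34 ± 0.12 in females and 0.15 ± 0.10 in males, neither past the threshold.

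In the list of GABA synthesis, vesicle loading, uptake and breakdown, 2 of 11 fell in males (18.2% called, beside 17.7% of all probe sets). In females 0 of 10 passed limma's threshold, and 3 (30%, beside 19% of all) were lower at an unadjusted p under 0.05. Slc6a13, a GABA transporter of the meninges, fell in males, with a log2 fold change of -1.37 ± 0.30 (limma adjusted p = 0.00614). Its means were 158 ± 63.3 in controls and 57.3 ± 26.1 after dehydration, SD over 5 arrays each. In females it had -0.8 ± 0.23 (limma adjusted p = 0.0831), and the difference between the sets did not pass (limma adjusted p = 0.727). Slc6a13 is itself one of the mural cell and meninges markers, of which 13 of 15 fell in males, where 9.38% of all probe sets fell. Of that list, Rgs5 rose in males by 0.60 ± 0.10 (limma adjusted p = 0.00123), and Pdgfrb had -0.02 ± 0.15. The mean log2 value over the list ran from 10.03 to 11.14 in male controls and from 9.3 to 10.36 in dehydrated males. The part of these markers in the fall of Slc6a13 was not tested. Aldh5a1, the last enzyme of GABA breakdown, fell by 0.33 ± 0.07 in males on 1379900_at (limma adjusted p = 0.00693), while another of its probe sets had 0.01 ± 0.11. On 1379900_at it had -0.29 ± 0.14 in females (limma adjusted p = 0.302). Slc32a1, which loads GABA into vesicles, had -0.42 ± 0.11 in females (limma adjusted p = 0.067) and -0.20 ± 0.10 in males.

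Kctd12, an auxiliary subunit of GABA-B receptors, fell in males by 0.40 ± 0.08 (limma adjusted p = 0.00433) and had -0.34 ± 0.13 in females (adjusted p = 0.168), both on 1373818_at. Its other probe set, 1382535_at, passed in neither set, with -0.35 ± 0.13 in males (limma adjusted p = 0.0865) and 0.05 ± 0.23 in females. Of the 3 measured genes of that list, Kctd12 alone passed in males (33.3%, beside 17.7% of all probe sets). In females 0 of 3 passed limma's threshold, with 1 lower at an unadjusted p under 0.05 (33.3%, beside 19% of all). Of the neurosteroid list, 1 of 5 passed in males (20%, beside 17.7% of all probe sets). This was Dbi, whose peptide binds the benzodiazepine site of GABA-A receptors, and it rose by 0.24 ± 0.06 (limma adjusted p = 0.0195). In females 0 of 6 passed limma's threshold and 0 lay at an unadjusted p under 0.05, with 0.37 ± 0.24 for Dbi. Akr1c14, an enzyme that makes allopregnanolone, had -0.92 ± 0.42 in males (limma adjusted p = 0.152) and -0.41 ± 0.24 in females on another probe set. Its signals were low, with male means of 30.7 ± 16.2 in controls and 13.8 ± 10.5 after dehydration (SD, n = 5 each).

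Chloride transport genes set the gradient that GABA-A receptors use. Of 13 measured in males 1 rose and 2 fell (23.1% called, beside 17.7% of all probe sets). Stk39, a kinase that activates the chloride importer NKCC1, rose by 0.51 ± 0.06 on the log2 scale, with means of 392 ± 32.3 and 562 ± 13.6 (SD, n = 5 each; limma adjusted p = 7.09e-05). These values are of 1387059_at, whose female value was 0.37 ± 0.12 (limma adjusted p = 0.112). On 1370614_s_at Stk39 had 0.21 ± 0.09 in males (limma adjusted p = 0.143) and 0.27 ± 0.18 in females. The potassium-chloride cotransporter genes Slc12a4 and Slc12a7 fell in males by 0.79 ± 0.17 and 0.56 ± 0.14 (limma adjusted p = 0.00473 and 0.0153), and had -0.69 ± 0.19 and 0.05 ± 0.16 in females. Most of the mural cell and meninges markers given with Slc6a13 fell on the same male arrays, and their part in these falls was not tested. The main neuronal transporter genes of the list, named after their values were seen, passed in neither set. Slc12a2 (the importer NKCC1) had 0.17 ± 0.08 in males (limma adjusted p = 0.172) and -0.09 ± 0.14 in females. Slc12a5 (the exporter KCC2) had 0.00 ± 0.07 in males and -0.29 ± 0.12 in females (limma adjusted p = 0.231).

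In females 1 of 12 chloride transport genes passed (8.33%, beside 2.96% of all probe sets). This was Car2, carbonic anhydrase of oligodendrocytes and other glia. Its signal was 466 ± 17 in controls and 327 ± 50.8 after dehydration (SD, n = 4 each). Its log2 fold change was -0.51 ± 0.12 (limma adjusted p = 0.0451), all on 1367733_at. Its other probe set, 1386922_at, did not pass in females, with -0.43 ± 0.24 (limma adjusted p = 0.353). In males they had -0.03 ± 0.08 and -0.02 ± 0.08. The difference between the sets on 1367733_at did not pass either (limma adjusted p = 0.229). On the same arrays 6 of 13 oligodendrocyte and myelin markers fell (46.2%, beside 2.96% of all probe sets called in either direction). The mean log2 value of these markers ran from 10.39 to 10.97 in controls and from 9.67 to 10.39 after dehydration. Their part in the fall of Car2 was not tested. Without 1 of the female arrays the count of these GABA genes called in females ran from 0 to 3, and leaving out any array but control replicate 2 or dehydrated replicate 3 gave 0. The count was also 0 with each array centred on its median, with no filter and with no variance trend.

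**Figure D4:**
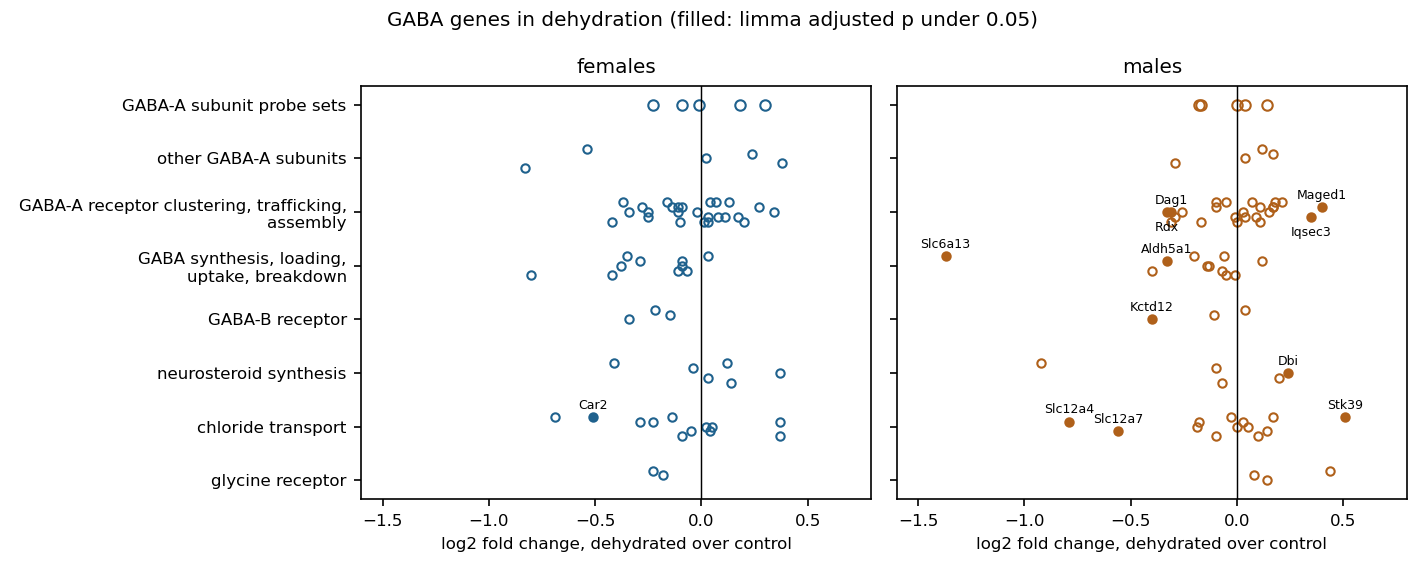
Log2 fold change of dehydrated over control arrays for the GABA-A subunit probe sets (top row) and for the genes of 7 other GABA lists, in females at the left and males at the right; filled points with a name passed limma's adjusted p of 0.05. In the top row no point is filled, in females 1 gene is filled (Car2) and in males 11 are.

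Series-wide measures that bear on these values were as follows. Avp and Oxt, of vasopressin and oxytocin, read at least 3644 and 3001 on all 18 arrays. Median signal per array lay between 36.1 and 46.5. The 3' to 5' signal ratio of the beta-actin control, a sign of RNA integrity and labelling, ran from 2.44 to 13.3 in female controls and 2.56 to 5.3 in dehydrated females, and from 5.23 to 7.12 in male controls and 6.83 to 9 in dehydrated males. That of the Gapdh control ran from 1.02 to 4.12 and 1.07 to 1.68 in females, and from 2.49 to 3.5 and 2.72 to 3.89 in males. The GABAergic neuron markers, a list of 5 on the array, had mean log2 values of 8.8 to 9.1 in female controls and 8.53 to 8.8 in dehydrated females; in males 9.21 to 9.83 and 9.05 to 9.35. In males 5 of 14 pan-neuronal markers rose (35.7%), where 8.32% of all probe sets rose. Their mean log2 value did not overlap between controls (11.7 to 11.85) and dehydrated arrays (11.86 to 12.04). There 4 of 12 astrocyte, 4 of 10 microglia and macrophage and 2 of 3 blood markers fell, where 9.38% of all probe sets fell. So did 2 of 4 ependyma and choroid plexus, 2 of 7 other hypothalamic neuron and 1 of 2 cortical and amygdalar neuron markers. The means of all these falling lists overlapped. For other hypothalamic neurons they ran from 8.6 to 9.77 in male controls and from 8.41 to 8.7 after dehydration. In females the means did not overlap for astrocyte markers (12.19 to 12.43 in controls, 11.98 to 12.13 after dehydration). The same held for microglia and macrophage markers (8.38 to 8.82 and 8.11 to 8.37) and for mural cell and meninges markers (9.57 to 10.06 and 9.24 to 9.49). It also held for blood markers (9.79 to 10.27 and 9.05 to 9.67) and, in the other direction, for magnocellular markers (10.19 to 10.3 and 10.38 to 10.7). Of the 10 magnocellular markers tested, 2 rose in females (20% called, beside 2.96% of all probe sets). In males 3 rose and 1 fell (40% called, beside 17.7%). Avp and Oxt passed in neither set. How often the means of other gene lists separate in this way was not counted. These shifts of the marker lists accompany the rises and falls named above, and their part in them was not tested.

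The left-out female array, labelled dehydrated, read 50.6 for Avp and 26 for Oxt. Its GABA-A subunit signals were 77.7 for Gabra2, 31.2 for Gabra5, 307 for Gabrb1, 211 for Gabrb2 (1377773_at) and 98.5 for Gabrg1. The lowest of the other 8 female arrays read 91.3, 110.5, 345, 497 and 39.8 for these probe sets. With that array included, the female log2 fold changes became 0.032, -0.47, -0.12, -0.50 and 0.40, with 0 of 5 past limma's threshold.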

How the data were processed

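The deposited table holds intensity signals per probe set on a linear scale, and the authors' software was MAS5 in females and GCOS 1.2 in males, per the submitters' processing notes. The 2% trimmed mean of each array is 100. Background and probe summary settings are not given in the sources used here, and detection calls were not used.

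Signals were multiplied so that every array had a trimmed mean of 500, 32 was added, and log2 taken. After 57 control probe sets were removed, a fit used the 21729 probe sets with an average log2 value past the 30th percentile. Fold changes on this scale understate changes of low signals. The test was that of limma 3.58.1 under R 4.3.3 (lmFit, eBayes, trended variance) and Benjamini-Hochberg adjustment over all probe sets kept, at a threshold of 0.05. Each set was fitted alone, and the difference between sets on 18 arrays. The size needed to pass is the t value at the largest p called, times the standard error. The script was tested on simulated independent normal values, with changes added only to probe sets above the median level. That check does not show how changes at low signals are recovered. Symbols came from the platform's annotation, updated by Entrez ID. Figures and promoter searches used Python 3.11.15 and matplotlib 3.10.9.

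The members, the gene lists and the choice to leave out 1 array were made with earlier results of these data known. Named were all members and, per list, genes called in both sets, up to 3 rises and 3 falls per set, or else the gene with the smallest p. Genes with a pattern like a member's were to be named only for members past the threshold, so none are. The number of arrays limits the precision.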

Additional observations from a re-analysis of the deposited data

Results flagged for a closer look

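Some arrays stood apart from the others of their group by the gap to the nearest array as a share of the group's range. Of 116 groups of values examined 9 stood out, 3 of them among the 32 groups of GABA-A subunit probe sets, where chance gives about 1 in 20. For Gabrb2 (1377773_at) a female control array read 798 against 588 to 611 on the others, and a male control array read 534 against 683 to 699.9. For Gabra2 a dehydrated male array read 160 against 194 to 207. Of the other genes, Iqsec3 read 385 on a dehydrated female array against 493 to 508, and 359 on a male control array against 460 to 490. Aldh5a1 read 261 on a dehydrated female array against 219 on the others, Slc12a4 31.8 against 48.3 to 50.9, and Glra1 (1371156_a_at) 4.01 against 26.5 to 34. Glrb read 467 on a male control array against 356 to 376.

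On the left-out female array, Gabrg1 read 98.5 against 39.8 to 89.2 in female controls, and Gabra3 6.11 against 2.01 to 3.77.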

How the results depend on the processing

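Over 320 values of the 5 GABA-A subunit probe sets under the alternatives, 0 passed limma's threshold and 37 changed sign, all where the effect lay between -0.088 and 0.082; the lowest adjusted p was 0.135 (Gabrg1, males). Gabrb1 went to 0.016 (array weights) and 0.032 (median centring) in females and 0.025 and 0.073 in males; leaving out 1 array gave -0.071 to 0.12 and -0.046 to 0.06. Gabra5 went to 0.042 in females with array weights (-0.21 to 0.035 without 1 array). Gabrb2 went to -0.037 in males under quantile normalization (-0.035 to 0.11 without 1 array). Of the differences between sets, Gabra2 went to -0.0045 with median centring and -0.11 with the left-out array (-0.078 to 0.17 without 1 array), Gabra5 to -0.3 with that array (-0.04 to 0.21), and Gabrb1 to 0.029 under quantile normalization (-0.07 to 0.13). The probe sets called in females, 643, became 2322 in 1 fit over all groups, 1709 with array weights, 290 without a trend, 1 with the left-out array and 210 to 886 without 1 array. In males 3846 became 2270 in 1 fit over all groups. The 1 called gene of the GABA lists in females became 7, 5 and 0 under the first 3 of these and 0 with the left-out array, with median centring and with no filter. Without 1 array it ran from 0 to 3. The causes were not tested. No paired analysis was possible because the labels give no replicate numbers that pair dehydrated with control arrays.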
